A study of Homo sapiens with 12 samples.

Results

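The 10 genes described here encode proteins of the nuclear lamina and its inner membrane partners (LMNB1, LMNB2, LMNA, LBR, EMD and TMPO) and proteins of the high mobility group (HMGB1, HMGB2, HMGB3 and HMGA1). They were taken by gene symbol from a table of 35337 genes, of which 22707 had a read in at least 1 library and 13847 had a mean of 5 or more normalised read counts (reads scaled for the depth of the library) and were tested. All 10 members were tested, with 5 to 4212 reads per member and library. The choice by symbol used no measured value, although it was made with earlier results of these data known.

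The RNA came from EndoC-βH3, a human beta-cell line derived from fetal pancreas that carries removable telomerase (hTERT) and SV40 large T genes and a tamoxifen-activated Cre (CreER). The senescent group had been treated with 4-hydroxytamoxifen for 3 weeks to excise these genes, and the non-senescent group had not. Both groups share the line, the transgenes as first integrated and the CreER, so that removal of the oncogenes, the drug and arrest of the cells cannot be told apart in this design. Each group held 6 libraries, 2 in batch A and 4 in batch B, where the letter in the sample titles was taken as the batch. The libraries were made by CEL-seq2, which reads the 3′ end of polyadenylated RNA. All groups come from 1 line, and beyond the batches nothing in the sources used here says that libraries of a group came from separate cultures, so the p-values measure the spread between these libraries.

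The lamina is a mesh of intermediate filament proteins under the inner nuclear membrane. B-type lamins stay anchored in the membrane, A-type lamins are also found in the nuclear interior, and membrane proteins such as the lamin B receptor, emerin and LAP2 tether chromatin to the mesh. High mobility group proteins bend or open DNA. Loss of lamin B1, movement of HMGB1 out of the nucleus and loss of HMGB2 are widely used as signs of senescence, while HMGA proteins have been described in senescence-associated heterochromatin foci.

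The total depth was 4672924 to 17106776 reads per library and was higher in batch A than in batch B in every library. The cyclin-dependent kinase inhibitor CDKN1A (p21) had 24.5 to 76.0 normalised read counts in non-senescent and 133 to 1500 in senescent libraries, and the proliferation marker MKI67 had 411 to 735 and 63.7 to 88.4. INS (insulin), the defining gene of the line, ranged from 11000 to 34300 in non-senescent and from 49700 to 186000 in senescent libraries. Of 18 markers of other cell types, PDGFRB (pericytes) and VWF (endothelium) had no read in either group. The summed level of the 18 was 165000 to 291000 in non-senescent and 116000 to 146000 in senescent libraries, nearly all of it SST (somatostatin), and that of the markers outside the endocrine lineage was 303 to 599 in non-senescent and 249 to 489 in senescent libraries. Of these markers 11 were tested, of which the acinar gene CPA1 rose and 5 fell (KRT19, GCG, HHEX, SST and PTPRC). Among all tested genes, 11.6% rose and 11.8% fell by limma. The log2 fold change of GCG was -2.36 (A) and -0.77 (B), and that of SST was -1.24 (A) and -0.35 (B). Both differed between the batches (limma interaction adjusted p = 6.81e-06 and 7.47e-04). The part of these markers in the results on the lamina genes was not tested. Of 14 tested beta-cell markers, 4 rose (INS, MAFA, IAPP and PDX1) by limma and DESeq2, 3 by edgeR, and 0 fell by any of these tools. At an unadjusted p under 0.05, 9 were higher and 2 lower.

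Of the 10 members, 9 were lower in senescent cells and 0 were higher (limma with a batch term, at a Benjamini-Hochberg adjusted p below 0.1 with at least a change of 1.5-fold), also by edgeR and DESeq2, and 0 were higher at an unadjusted p under 0.05. Over all genes tested, 23.4% were called in either direction, 11.8% lower and 11.6% higher. The median log2 fold change of the members was -0.83, and that of all tested genes was 0.012. The share of members called lower, 90%, stands beside 11.8% for all genes, and LMNA was the exception. Senescent libraries lay below non-senescent libraries without overlap in batch A and in batch B for 7 members, a pattern shown by 11.9% of all tested genes. No member showed the opposite pattern, found in 11.9% of all tested genes. In bulk RNA, fewer cells of a type and less RNA per cell cannot be told apart.

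**Figure D1:**
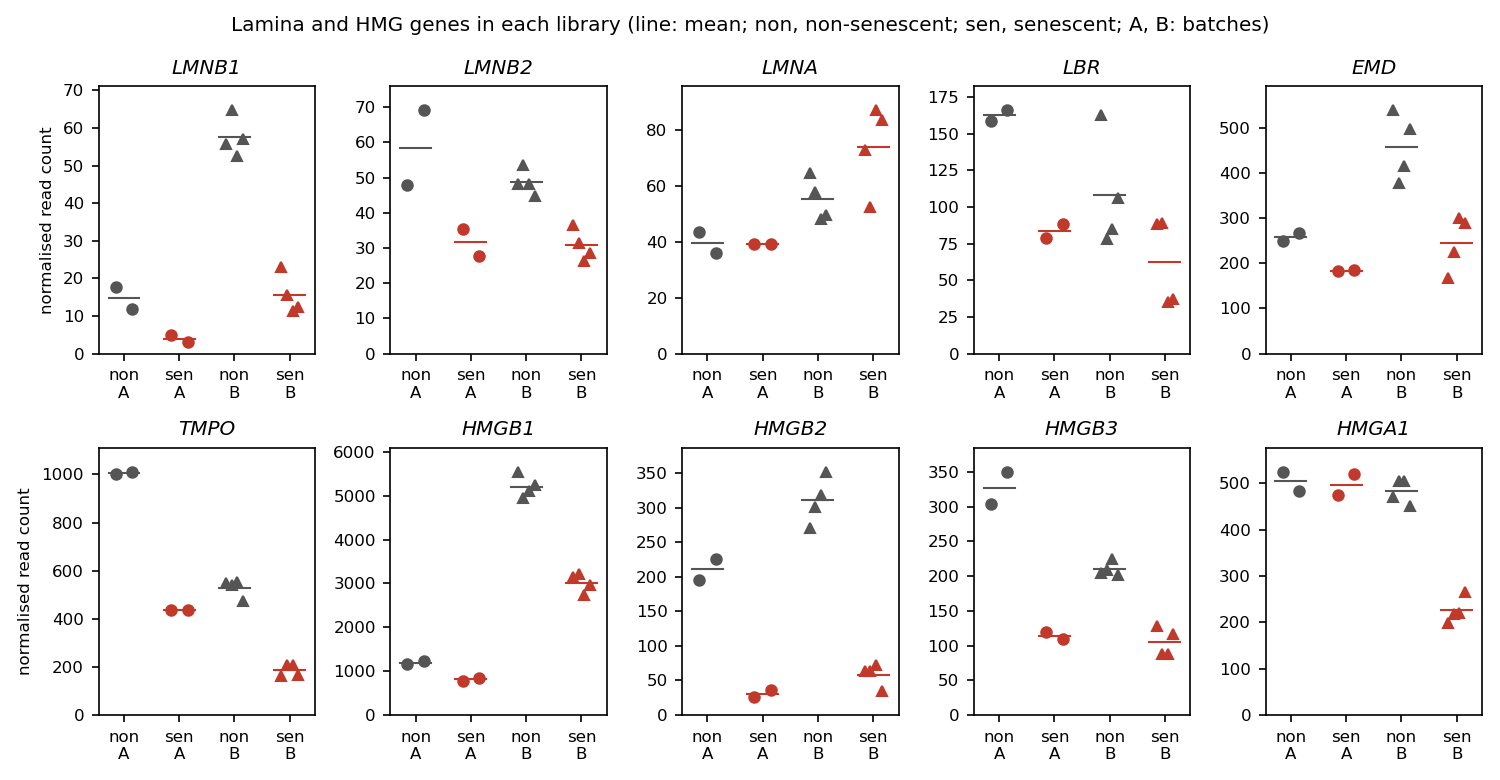
Normalised read count (y axis, linear from 0) of each of the 10 genes in the 12 libraries, with non-senescent libraries in grey, senescent in red, batch A as circles, batch B as triangles and lines at the mean of each set. Red points lie below the grey points of their batch in 7 panels, whereas LMNA overlaps in both batches, LBR overlaps in batch B and HMGA1 overlaps in batch A.

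Among the lamins, LMNB1, which encodes the B-type lamin whose loss is the usual sign of senescence, had the largest fall of the 3. Its normalised read count in non-senescent cells was 17.8 and 11.9 in batch A and 55.7, 64.7, 52.6 and 57.2 in batch B. In senescent cells it was 4.94 and 3.02 in batch A and 23.0, 15.7, 11.4 and 12.5 in batch B. The groups did not overlap within either batch, but the non-senescent libraries of batch A lay among the senescent libraries of batch B. The log2 fold change was -1.80 ± 0.24 (SE, n = 6 per group; limma adjusted p = 1.23e-05), a 3.47-fold fall, and the separate batches gave -1.67 (A) and -1.86 (B). LMNB1 ranked 301 of 13847 genes counted from the most lowered. These values rest on few reads, 15 to 47 per non-senescent library and 5 to 19 per senescent library, in total 213 and 70.

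LMNB2, the other B-type lamin, had a smaller log2 fold change. It had normalised read counts of 47.8 and 69.1 (batch A) and 48.2, 53.7, 48.2 and 44.7 (batch B) in non-senescent cells. The senescent values were 35.5 and 27.8 in batch A and 36.4, 31.5, 26.3 and 28.6 in batch B. Every senescent library lay below every non-senescent library. The log2 fold change was -0.72 ± 0.17 (SE; limma adjusted p = 0.00275), and within the batches it was -0.85 (A) and -0.66 (B).

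LMNA, which encodes the A-type lamins A and C, was not called. It had 43.4 and 35.8 (batch A) and 64.7, 57.8, 48.2 and 49.7 (batch B) normalised read counts in non-senescent cells, against 39.1, 39.3, 72.7, 52.5, 87.0 and 83.5 in senescent cells in the same order of batches. The groups overlapped in both batches, although 3 of the 4 senescent libraries of batch B lay above all others. The log2 fold change of LMNA was 0.26 ± 0.17 (SE; limma adjusted p = 0.235), and the batches gave -0.0080 ± 0.28 (A) and 0.40 ± 0.20 (B). The batches did not differ past the threshold for this gene (interaction adjusted p = 0.639).

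Relative to LMNA in the same library, both B-type lamin RNAs were lower in senescent cells. LMNB1 had 0.333 to 0.410 read per LMNA read in non-senescent and 0.0769 to 0.126 in senescent libraries of batch A. In batch B the ratio was 0.86 to 1.15 in non-senescent and 0.132 to 0.317 in senescent libraries. LMNB2 had 1.1 to 1.93 reads per LMNA read in non-senescent and 0.708 to 0.908 in senescent libraries of batch A, and 0.744 to 1.00 and 0.303 to 0.60 in batch B. The groups did not overlap in either ratio within either batch. The ratios were not tested, since they rest on the values already given.

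Among the inner membrane proteins, TMPO had the largest change. TMPO encodes the LAP2 proteins, of which the membrane forms bind B-type lamins and the nucleoplasmic form LAP2α binds A-type lamins. Its normalised read counts were 1004 and 1011 in batch A and 548, 542, 552 and 476 in batch B in non-senescent cells. Senescent libraries had 438 and 438 in batch A and 161, 208, 208 and 166 in batch B. The senescent libraries kept 43.5% of the non-senescent mean in batch A and 35.1% in batch B, and the groups did not overlap in any library. The log2 fold change was -1.41 ± 0.09 (SE; limma adjusted p = 3.13e-09). A single row of the table holds all LAP2 forms, whose annotated 3′ ends span 14717 bases, so the forms were not separated, and the same holds for lamins A and C.

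EMD, which encodes emerin, a LEM-domain protein that binds the chromatin factor BANF1, also fell. It had 250, 266, 539, 377, 415 and 498 normalised read counts in non-senescent libraries A1, A2 and B1 to B4. In senescent libraries the values in this order were 182, 184, 167, 225, 301 and 290. The groups did not overlap within a batch, and the spread was widest in batch B. Its log2 fold change was -0.78 ± 0.14 (SE; limma adjusted p = 3.13e-04), and within the batches it was -0.50 (A) and -0.92 (B). Batch A alone stayed below the fold limit of 1.5 (adjusted p = 0.0104 in a limma fit of that batch).

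LBR, the lamin B receptor, which tethers heterochromatin and also has sterol reductase activity, was called lower and varied widely within batch B. Non-senescent libraries had normalised read counts of 159 and 166 in batch A and 163, 78.5, 84.8 and 106 in batch B. Senescent libraries had 79.0 and 88.2 in batch A and 88.5, 89.2, 35.5 and 37.4 in batch B. The groups were separate in batch A and overlapped in batch B, where senescent libraries B1 and B2 lay above non-senescent libraries B2 and B3. Its log2 fold change was -0.88 ± 0.24 (SE; limma adjusted p = 0.00694). With batch B alone, the fold change was -0.85 and no longer passed (adjusted p = 0.122).

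HMGB2, a chromatin protein abundant in dividing cells, had the largest change of the 10 genes. Its normalised read counts in non-senescent cells were 196 and 226 in batch A and 270, 301, 319 and 352 in batch B. Senescent cells had 26.5 and 35.6 in batch A and 64.2, 63.0, 72.1 and 34.9 in batch B. The highest senescent library lay far below the lowest non-senescent library. The log2 fold change of HMGB2 was -2.53 ± 0.16 (SE; limma adjusted p = 2.40e-09), a 5.78-fold fall that ranked 96 of 13847 from the most lowered. The senescent mean was 14.7% of the non-senescent mean in batch A and 18.9% in batch B.

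HMGB3, a related protein best known from stem and progenitor cells, was lower in every senescent library. Non-senescent libraries had 304 and 350 normalised read counts in batch A and 205, 209, 225 and 201 in batch B. Senescent libraries had 119, 109, 128, 87.1, 88.1 and 117 in the order A1, A2 and B1 to B4. The groups were separate over all 12 libraries. Its log2 fold change was -1.18 ± 0.13 (SE; limma adjusted p = 1.34e-06), and within the batches it was -1.51 (A) and -1.01 (B).

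HMGB1, the DNA-binding protein that also acts as an alarm signal once outside the cell, had the most reads and the smallest called change. It had 1153 and 1229 normalised read counts in batch A and 5544, 4945, 5098 and 5233 in batch B in non-senescent cells. The senescent values were 782 and 839 in batch A and 3151, 3222, 2731 and 2956 in batch B. The batches lay further apart than the groups, since the mean of batch B was 4.37-fold that of batch A in non-senescent and 3.72-fold in senescent cells. Within each batch the groups did not overlap. Its log2 fold change was -0.71 ± 0.07 (SE; limma adjusted p = 1.95e-07), and within the batches it was -0.55 (A) and -0.79 (B), and HMGB1 was not called without a batch term (adjusted p = 0.466). The RNA level says nothing of where the protein lies in the cell or whether it is released.

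HMGB2 reads per HMGB1 read, a ratio in which the batch difference of HMGB1 remains, were 0.170 to 0.184 in non-senescent and 0.0338 to 0.0425 in senescent libraries of batch A. They were 0.0486 to 0.0672 and 0.0118 to 0.0264 in batch B. The ratio was lower in senescent libraries of both batches, which was not tested.

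HMGB1 and HMGB3 have many processed pseudogenes to which similar reads can be assigned. The table held 48 rows of HMGB1 pseudogenes, 27 with reads, which took 3.22% to 7.21% of the reads of HMGB1 and its pseudogenes together. HMGB1P5 fell with HMGB1 (log2 fold change -0.91, limma adjusted p = 0.00164), whereas HMGB1P51 was called higher (1.00, limma adjusted p = 0.0891) and had -0.85 (A) and 1.93 (B) within the batches. HMGB1P8 had 0.08 and was not called. Of 29 HMGB3 pseudogene rows, 14 had reads, and their share ranged from 0.375% to 29.4% of the pooled reads. HMGB3P24, the only one tested, had no read in batch A and was not called (limma adjusted p = 0.318). With pseudogene reads added to the gene, an alternative chosen after seeing the data, the log2 fold change was -0.68 for HMGB1 and -1.09 for HMGB3, and both remained called (limma adjusted p = 2.61e-07 and 1.64e-05).

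HMGA1, an AT-hook protein that binds the minor groove, differed between the batches. In batch A it had 525 and 484 normalised read counts in non-senescent and 474 and 521 in senescent cells. In batch B it had 470, 505, 506 and 451 in non-senescent and 199, 219, 220 and 265 in senescent cells. The groups overlapped in batch A and were far apart in batch B. Its log2 fold change was -0.020 ± 0.14 (SE) in batch A and -1.10 ± 0.10 in batch B, and the difference, batch B minus batch A, was -1.08 ± 0.17 (SE; limma interaction adjusted p = 0.00319). Over both batches the fitted value was -0.74 ± 0.15 (SE; limma adjusted p = 7.92e-04). HMGA1 was the 1 member of 10 with such a batch difference, which 4.21% of all genes showed, and the pooled value lies between the values of the batches.

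**Figure D2:**
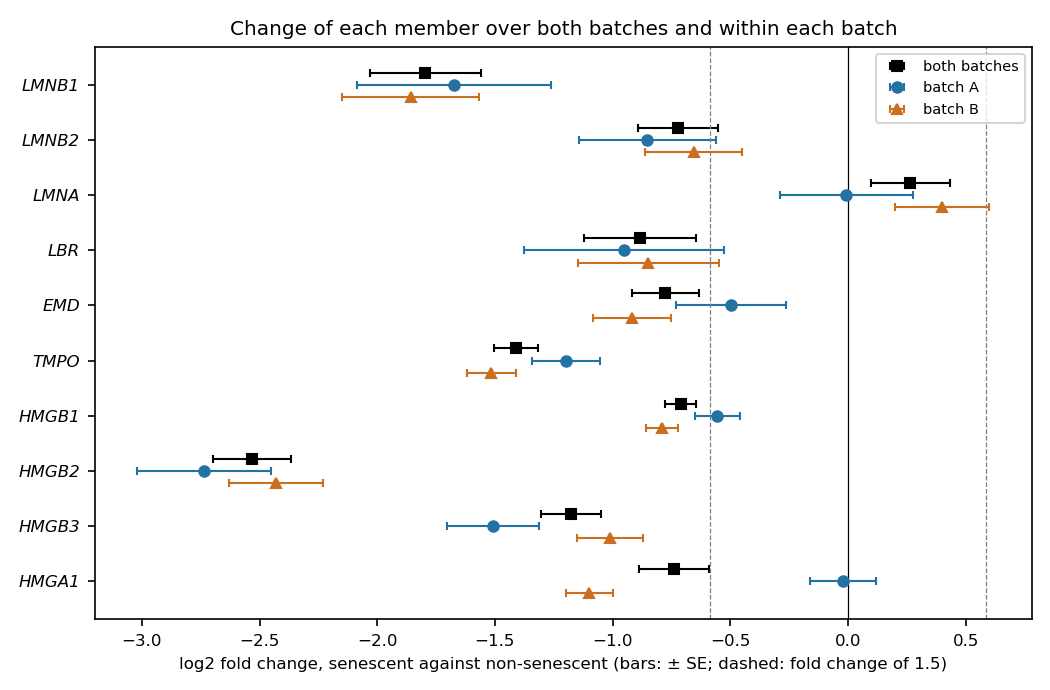
Log2 fold change of senescent against non-senescent libraries (x axis) for each gene over both batches (black), in batch A (blue) and in batch B (orange), with SE bars and dashed lines at a fold change of 1.5. HMGB2 lies furthest left at -2.53, LMNA at 0.26 lies between the dashed lines, and the batch values of HMGA1 are apart at -0.020 and -1.10.

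All members but LMNA had a negative fold change in both batches, although that of HMGA1 in batch A, -0.020 ± 0.14 (SE), was within its error of 0. The medians over the 10 genes were -0.90 (batch A) and -0.96 (batch B). Beside the 2 genes with the largest falls, HMGB2 and LMNB1, the called members ranged from -1.41 for TMPO to -0.71 for HMGB1. Of the 10, LMNB1, LBR, TMPO, HMGB2, HMGB3 and HMGA1 are on the study's hallmark list of E2F targets, which the RB family represses. The fold changes of these 6 ran from -2.53 to -0.74, and those of the other 4 from -0.78 to 0.26. Of 194 tested genes of that list, 72.7% were called lower, with a median log2 fold change of -1.15. No test was made of either split.

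Beside the members, all 16 tested proliferation genes were lower and 0 higher by limma, edgeR and DESeq2, also at an unadjusted p under 0.05, with a median log2 fold change of -2.34. Their median was -2.23 (batch A) and -2.36 (batch B), and a relation to the batch difference of HMGA1 was not tested. A batch difference was called for 5 of the 16, against 4.21% of all genes, and it went in both directions. MKI67 had -3.45 (A) and -2.51 (B), with a limma interaction adjusted p of 0.0220, and TOP2A had -3.25 (A) and -2.34 (B). Smaller falls in batch A were those of MCM2 (-1.60 in A, -2.26 in B), MCM5 (-1.73 and -2.55) and MCM7 (-1.60 and -2.11). BUB1, a spindle checkpoint kinase, had -3.57, AURKB, a mitotic kinase, -3.11, and MKI67 -2.83. Of 10 tested kinases and other factors that take the nuclear envelope apart and rebuild it in mitosis, 5 were lower and 0 higher. These counts were the same by limma, edgeR and DESeq2, and at an unadjusted p under 0.05, 6 were lower and 0 higher. By limma, 11.8% of all genes were called lower and 11.6% higher. The 5 called genes included the cyclins CCNB2 (-3.04) and CCNB1 (-2.65) and their kinase CDK1 (-2.97), which phosphorylates lamins. The others were VRK1 (-1.12), which phosphorylates BANF1, and the phosphatase subunit PPP1CA (-0.68). The part of the proliferation genes' change in the result for the members was not tested.

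Other proteins of the inner nuclear membrane and of the LINC complex, which links the lamina to the cytoskeleton, changed in both directions. Of 16 tested, 4 were lower and 1 was higher by limma, edgeR and DESeq2, against 11.8% and 11.6% of all genes by limma. At an unadjusted p under 0.05, 7 were lower and 2 higher. The median log2 fold change was -0.27. NRM (nurim) had 124 to 277 normalised read counts in non-senescent and 40.5 to 59.4 in senescent libraries, a log2 fold change of -1.99 (limma adjusted p = 4.17e-09). NEMP1, a membrane protein of the nuclear envelope, had -1.69, and BANF1, the chromatin bridge bound by emerin, had -0.85 (limma adjusted p = 8.50e-08). The fourth gene called lower, the nesprin gene SYNE2, had -0.59. SYNE3, a nesprin of the outer membrane, was higher at 0.77 (limma adjusted p = 0.0310). SUN1 and SUN2, the inner membrane anchors of the LINC complex, had 0.14 and -0.13 and were not called.

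None of the 6 lamin processing genes was called by limma, edgeR or DESeq2, while 2 were higher and 1 lower at an unadjusted p under 0.05. These were ZMPSTE24 (0.37), the protease that cleaves prelamin A, NARF (0.55), which binds prelamin A, and ICMT (-0.34), the methyltransferase of its processed end, and all 3 passed the adjusted p and missed the fold limit. Among 13 genes of peripheral heterochromatin, 4 were lower and 1 was higher by limma, against 11.8% and 11.6% of all genes. At an unadjusted p under 0.05, 5 were lower and 2 higher, and edgeR called 5 lower. SUV39H1, a histone H3 lysine 9 methyltransferase, had a log2 fold change of -1.32, and the HP1 genes CBX3 and CBX5 had -0.81 and -0.72, SUV39H2, the paralog of SUV39H1, had -0.69, and CBX1, the remaining HP1 gene, had -0.11 and was not called. ATRX, a chromatin remodeller, was higher at 0.83 (limma adjusted p = 3.43e-06).

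Of 9 tested histone chaperones and variants linked to senescence heterochromatin foci, 3 were lower and 0 were higher by limma, edgeR and DESeq2. At an unadjusted p under 0.05, 5 were lower and 1 was higher. The limma shares over all genes were 11.8% lower and 11.6% higher. The 3 called genes, ASF1B (-2.73), CHAF1A (-2.31) and CHAF1B (-1.42), deposit histones on replicated DNA. HIRA, which places histone H3.3 outside replication, had -0.43 (limma adjusted p = 0.0268) and missed the fold limit alone. ASF1A, its partner, had 0.25 and was not called. Of 30 tested nuclear pore genes, 8 were lower and 1 was higher by limma, against 11.8% and 11.6% of all genes. By edgeR 9 were lower, and at an unadjusted p under 0.05, 13 were lower and 3 higher. The largest falls were those of the membrane nucleoporin NDC1 (-1.42), NUP85 (-0.97) and NUP188 (-0.92), and RANBP2 was higher at 0.65.

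Of 13 other high mobility group genes tested, only HMGN2, a nucleosome-binding protein, was called by limma, edgeR or DESeq2, at -1.25 (limma adjusted p = 1.26e-10), while 4 were lower and 2 higher at an unadjusted p under 0.05. It had 2860 to 7460 normalised read counts in non-senescent and 1230 to 3260 in senescent libraries, ranges that overlap when the batches are pooled. HMGN1, a relative, had -0.38 and missed the fold limit, and HMGA2, the paralog of HMGA1, had 3.89 to 14.9 and 4.49 to 9.96 normalised read counts and was not called. Of 8 tested receptors and partners of HMGB1, 1 was lower and 0 were higher by limma, edgeR or DESeq2. At an unadjusted p under 0.05, 4 were lower and 1 was higher. Over all genes, 11.8% were called lower by limma. The called gene was the chemokine receptor CXCR4 at -1.43 ± 0.46 (SE; limma adjusted p = 0.0194). It had few reads, with 17.4 to 67.6 normalised read counts in non-senescent and 1.05 to 23.0 in senescent libraries. AGER, the receptor RAGE, had 0.22 and was not called. CXCL12, which forms a complex with HMGB1, had -0.33 (limma adjusted p = 0.00101) and missed the fold limit alone.

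**Figure D3:**
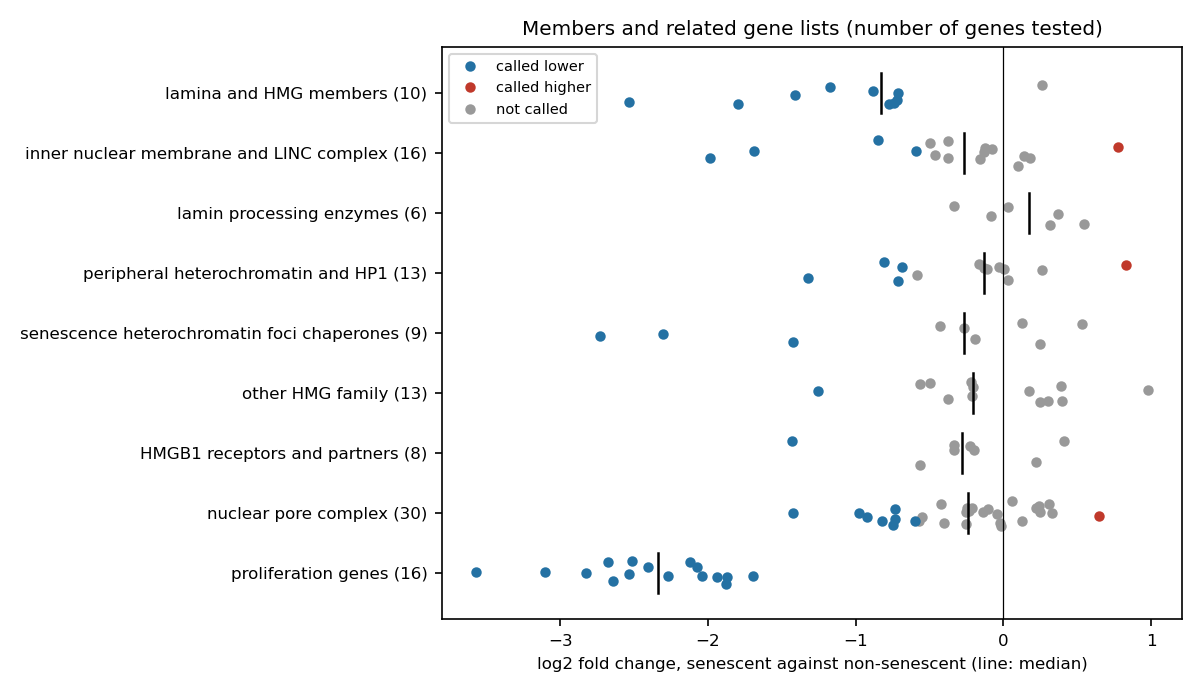
Log2 fold change of each tested gene (points; blue called lower, red called higher, grey not called) for the 10 members and 8 related lists, with the number of genes tested in brackets and the median as a line. The members have a median of -0.83, the proliferation genes lie further left at -2.34, and the other lists have points on both sides of 0.

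The genes whose pattern over the 12 libraries was nearest to that of LMNB1, by the root mean square difference of log2 values centred on their mean, were EMC3-AS1 (0.351), ZNF367 (0.357), RPL39L (0.387), TACC3 (0.420) and SCML1 (0.427), where the median over the other genes was 1.37. Nearest to LMNA were NFX1 (0.152), KAT6B (0.169), SLC2A4RG (0.169), CORO1B (0.173) and ELF1 (0.178), with a median over other genes of 0.680. The points share libraries, depth and batch, so these distances describe likeness only.

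The sequence upstream of the start was read for the members with an entry in the RefSeq promoter table (GRCh38.p14). Of 9 with an entry, 7 had one at the MANE Select start, and the 250 bases before it were searched on both strands for the CCAAT box, for the cell cycle homology region TTTGAA and for 4 E2F octamers (TTTCCCGC, TTTCGCGC, TTTGCCGC and TTTGGCGC). CCAAT was found in 5 of the 7 (LMNB1, EMD, TMPO, HMGB1 and HMGB3), against 32.0% of all 35116 promoters in the table. TTTGAA was found in 2 (LMNB2 and HMGB3), against 13.3% of promoters, and an E2F octamer in 0, against 2.79%. A match is a description of the letters and no match says only that these letters are absent from the window.

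The windows of the high mobility group genes HMGB1, HMGB3 and HMGA1 are shown as the 3 members of that family with an entry at the MANE Select start, and they hold 3, 3 and 0 CCAAT boxes. Over the 7 genes, LMNB2 and HMGA1 held 0 boxes, with log2 fold changes of -0.72 and -0.74, and LMNB1 held 1 (-1.80). EMD and TMPO held 2 each (-0.78 and -1.41), and HMGB1 and HMGB3 held 3 each (-0.71 and -1.18). A relation between the number of boxes and the size of the change was not tested. Capitals mark CCAAT and, once in HMGB3, TTTGAA. The windows are chr13:30465937-30466186 (minus strand), chrX:150983085-150983334 (plus strand) and chr6:34236623-34236872 (plus strand), in this order, and each ends at the base before the start.
HMGB1: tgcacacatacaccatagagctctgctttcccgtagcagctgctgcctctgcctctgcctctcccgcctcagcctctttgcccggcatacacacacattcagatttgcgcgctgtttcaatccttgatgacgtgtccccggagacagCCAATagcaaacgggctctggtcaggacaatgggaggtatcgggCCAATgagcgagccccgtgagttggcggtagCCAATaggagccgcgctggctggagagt
HMGB3: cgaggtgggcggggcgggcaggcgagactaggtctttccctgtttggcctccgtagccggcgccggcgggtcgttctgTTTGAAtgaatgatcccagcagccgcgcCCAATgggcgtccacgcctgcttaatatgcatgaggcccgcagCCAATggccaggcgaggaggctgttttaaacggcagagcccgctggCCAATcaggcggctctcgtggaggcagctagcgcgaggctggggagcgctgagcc
HMGA1: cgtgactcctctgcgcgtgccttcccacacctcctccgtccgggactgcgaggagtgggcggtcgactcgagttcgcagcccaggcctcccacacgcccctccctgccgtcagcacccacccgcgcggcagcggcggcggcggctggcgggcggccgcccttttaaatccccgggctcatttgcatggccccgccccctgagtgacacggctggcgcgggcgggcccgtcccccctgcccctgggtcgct
The boxes of HMGB1 begin at -103, -59 and -28 and those of HMGB3 at -144, -101 and -55, counted from the start. The HMGA1 window overlaps an exon of an antisense transcript in GENCODE v44.

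LMNB1, TMPO and LMNA lie on chromosomes 5 (126776623 to 126837020, plus strand), 12 (98515579 to 98550351, plus strand) and 1 (156082573 to 156140081, plus strand) of GRCh38, and HMGB2 lies on chromosome 4 (173331376 to 173334432, minus strand), by GENCODE v44. No exon of another gene overlapped the last 500 bases of the MANE Select transcript of any member, where its 3′ reads would fall. Other annotated ends of the members, which span 32106 bases for LMNB1 and 22419 for LBR, were not searched.

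The direction of the 9 called members did not change in any of 25 processing alternatives. LMNB1 ranged from -1.91 to -1.30, HMGB2 from -2.74 to -2.36 and TMPO from -1.52 to -1.20. HMGA1 had the widest range, from -1.10 with batch B alone to -0.020 with batch A alone. No member lost or gained a call when any 1 of the 12 libraries was left out.

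**Figure D4:**
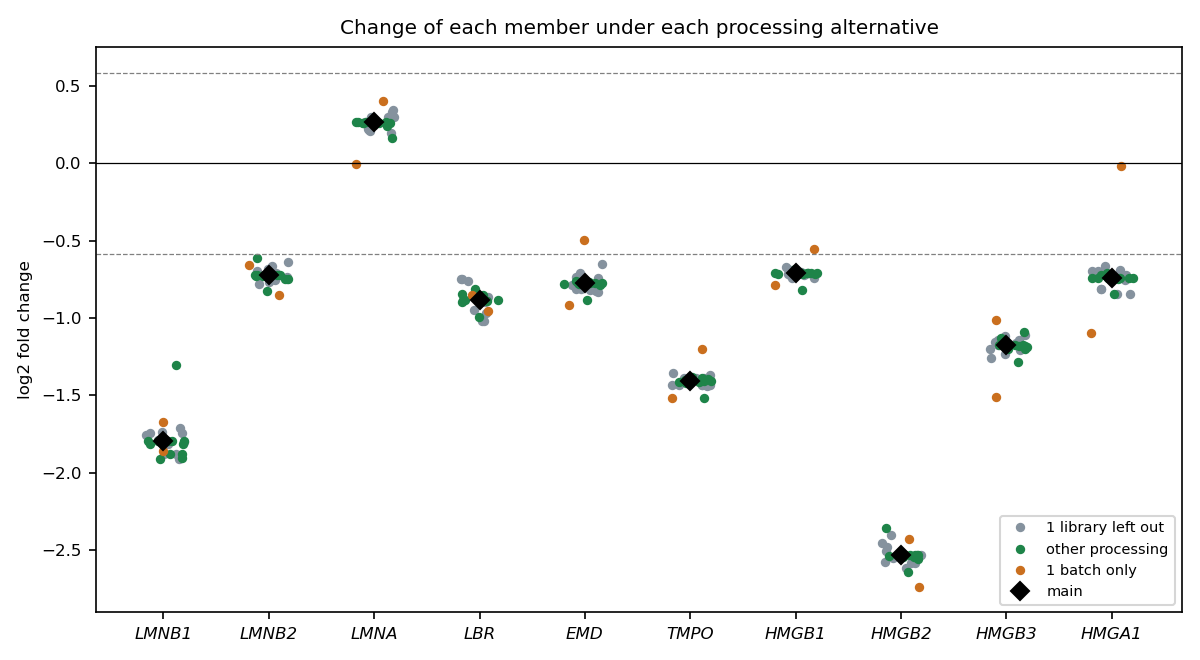
Log2 fold change (y axis) of each gene as reported (black diamonds) and under each alternative (grey, 1 library left out; orange, 1 batch only; green, other processing), with dashed lines at a fold change of 1.5. The points of HMGB2 lie between -2.74 and -2.36, and the widest spread is that of HMGA1 between its batches.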

How the data were processed

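RNA of 12 EndoC-βH3 libraries was read by CEL-seq2. According to the study's methods, Cutadapt served for trimming, Salmon 0.13.1 for quantification on GRCh38 and DESeq2, with batch correction, for differential expression. How the deposited values were normalised is not stated there, and was read from the values and labels. The transcript annotation and the use of molecular identifiers are not given in the sources used here, so reads are not known to be independent molecules. The deposited values are a signal, the reads of a gene divided by 1 factor per library, called normalised read count here. Whole reads were recovered for 100% of 196021 non-zero values (tolerance 0.001). The deposited columns of the authors' own comparison (mean level, log2 fold change and its error, the test statistic as a score, p-value and adjusted p-value) were not used.

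The main test was limma 3.58.1 (R 4.3.3), with an intensity trend, on log2(normalised read count + 1) with batch and group as terms, for genes with a mean of at least 5. The pseudocount of 1 understates the change of low genes. Calls needed an adjusted p under 0.1 over all genes and a fold change over 1.5. The interaction of batch and group was tested the same way. The recovered reads were tested with edgeR 4.0.16 (quasi-likelihood) and DESeq2 1.42.0 as alternatives. Other alternatives were other scalings, pseudocounts, filters and designs, and each library left out. The models were tested on simulated data. Libraries of the same group and batch differed by more than sampling noise. In the related lists, the up to 3 called genes per direction with the largest change and a mean of at least 20 were named, every called gene where 5 or fewer were called, and the 5 genes most like LMNB1 and LMNA. Genes named there without a call were chosen after their values were seen. The members and lists were chosen with earlier results of these data known. Protein sequences and the promoter of HMGB2 were not analysed here.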

Additional observations from a re-analysis of the deposited data

Results flagged for a closer look

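Among 40 sets of libraries of a member that were searched for 1 library far from the others, 2 had one, by Dixon's test, which chance alone gives in about 1 in 20 sets. Non-senescent library A2 of LMNB2, at 69.1 normalised read counts, stood above the other non-senescent libraries by 0.633 of the range of all 6. Non-senescent library B4 of TMPO, at 476, stood below the others of batch B by 0.87 of the range of all 4, although those lay within 542 to 552. Both genes remained called without any single library. The senescence response of HMGA1 differed between the batches by -1.08 on the log2 scale (batch B minus batch A, limma interaction adjusted p = 0.00319), which was tested as an interaction. The direction and call of this difference were kept in all 18 alternative interaction fits, with an adjusted p of up to 0.042 when a library was left out. The cause was not tested.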

How the results depend on the processing

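The log2 fold changes of the 10 members were recomputed under 25 alternatives, and 244 of 250 kept their direction and their side of the threshold. LMNA turned to -0.0080 with batch A only, and was not called in any fit. HMGB1 without a batch term, LBR in batch B only, and EMD, HMGB1 and HMGA1 in batch A only kept their direction and lost the call. In batch A, EMD (adjusted p = 0.0104) and HMGB1 (adjusted p = 0.00340) missed the fold limit alone, while HMGA1 was at -0.020. HMGB1 without a batch term (adjusted p = 0.466) and LBR in batch B (adjusted p = 0.122) missed the limit on p, in limma fits. The members called numbered 8 without a batch term, 6 with batch A only, 8 with batch B only and 9 in every other alternative, edgeR and DESeq2 included. Over all genes, 3237 were called, against 2143 without a batch term. Leaving out 1 library gave 3142 to 3277 calls over all genes and 9 among the members. Scaling every library to the same total shifted the median of all genes from 0.012 to -0.091 and the share of calls that were higher from 49.6% to 36.9%, and the same 9 members were called lower.

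The replicate block, which treats libraries of the same name as pairs, gave 9 members and 3211 genes, and changed no call of a member. The correlation of deviations between libraries of the same name was -0.0508 to 0.0164. With 2 libraries per group in batch A, A1 and A2 share 1 value (-0.0508) by construction. These values cannot tell whether libraries of the same name were handled together. Genes with a batch difference numbered 583 over all genes, 808 with edgeR and 1079 with DESeq2. Their number was 261 without non-senescent A1, 175 without non-senescent A2, 183 without senescent A1 and 169 without senescent A2, and HMGA1 was among them each time. LMNB1, with 5 to 19 reads per senescent library, had the fewest reads and changed to -1.30 with a pseudocount of 8. The members' log2 fold changes without 1 library ranged from -1.91 to -1.71 for LMNB1, from 0.20 to 0.35 for LMNA and from -0.85 to -0.66 for HMGA1.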
